A study of Mus musculus with 16 samples.

Results

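The comparison described here set bulk striatal RNA with bARK in astrocytes against bulk striatal RNA with bARK(D110A) in astrocytes, over every gene of the read-count table. Its members were the 8 input libraries of the 16 in the series, chosen by their labels: 4 with bARK and 4 with bARK(D110A). Input is RNA of the cleared lysate of the homogenised whole striatum, before any precipitation, so it holds RNA of all striatal cells. The mice of both groups were male C57BL/6J animals, 9 weeks old, with a genotype labelled wildtype, and in both groups the astrocytes expressed a construct. No group without a construct was in the comparison. The other 8 libraries hold RNA that was precipitated with astrocyte ribosomes through a hemagglutinin tag (IP). The promoter, the vector and the way the tag was brought into astrocytes are not stated in those labels. The study's design text speaks of 4 mice, which is read here as 4 in each group, and the labels do not say in words that each library number stands for another animal. The p-values therefore cover the spread among these libraries, part of which may be technical.

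bARK is a peptide taken from the β-adrenergic receptor kinase, a G protein-coupled receptor kinase now called GRK2. The part of the kinase that it carries binds the active α subunit of Gq proteins and so keeps it from phospholipase C. Through phospholipase C, Gq-coupled receptors raise inositol trisphosphate, which opens calcium channels of the endoplasmic reticulum. The D110A form has a substitution in this binding region and serves as the control peptide. In the striatum, astrocytes lie among spiny projection neurons, and the question put to the bulk RNA is whether the construct in astrocytes went with differences in the RNA of the whole tissue.

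The input libraries held 31828001, 27803803, 37998621 and 35956416 counted reads with bARK and 29363913, 33169509, 37328132 and 29083909 with bARK(D110A), in the order of their numbers. The totals did not differ beyond their spread (exact permutation test, two-sided, p = 0.743, where 4 against 4 libraries cannot go below 0.0286). Every pair of libraries of a group differed by more than counting noise. The tissue label was borne out by the defining markers of striatal spiny neurons and astrocytes, which were high in all 8 libraries. Ppp1r1b, which codes for the phosphatase inhibitor DARPP-32 of spiny neurons, had 1425, 1253, 1305 and 1374 CPM (the depth-scaled count unit, here on TMM-adjusted library sizes) with bARK and 1354, 1212, 1313 and 1209 CPM with bARK(D110A). Slc1a2, the main glutamate transporter of astrocytes, had 4201, 4001, 4356 and 4266 CPM and 3445, 4220.0, 4159.5 and 4202 CPM in the same order of groups. A pair of libraries stood apart, and both carried bARK(D110A). Library 1 of bARK(D110A) lay at the end of the first principal component (29.6% of the variance) and library 2 at the end of the second (20.5%). Library 3 of bARK(D110A) lay on the other side of the first component, at -19.6 beside 35.4 for library 1. Library 2 of bARK was near it, at -15.4. The SD of log2 CPM between the 4 libraries was 0.0902 with bARK and 0.117 with bARK(D110A) in the median gene, and it was larger with bARK(D110A) in 65.8% of genes. The median log2 fold change of each gene list below is therefore followed in brackets by its range with 1 library at a time left out and then by its value without libraries 1 and 2 of bARK(D110A). Of 34 lists, 15 kept the sign of the median in all of these settings and 19 did not.

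No gene passed the test between bARK and bARK(D110A) in bulk striatum. Of 15358 genes tested with edgeR's quasi-likelihood test, 0 were higher and 0 were lower with bARK at an adjusted p under 0.05 (0%), and the smallest adjusted p was 0.774. At an unadjusted p under 0.05 there were 425 higher genes (2.77%) and 480 lower genes (3.13%), together 905 (5.89%). Over all genes, 46.2% had a log2 fold change above 0. Of the 905, 47.0% were higher with bARK, and the share among such genes moved with the scaling, to 20.2% with library size alone and 33.5% with upper quartile factors. The CPM of the 4 bARK libraries lay wholly above those of the 4 bARK(D110A) libraries in 258 genes (1.68%) and wholly below them in 236 genes (1.54%). limma-voom also called 0 genes, with 861 at an unadjusted p under 0.05. DESeq2 called 2 genes higher and 0 lower, Vipr1 and Plxna2, each with an adjusted p of 0.0476, and had 951 genes at an unadjusted p under 0.05. Leaving out any 1 library, or libraries 1 and 2 of bARK(D110A) together, again gave 0 calls. The smallest adjusted p of edgeR's test in these settings was 0.194, without library 3 of bARK(D110A).

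The intervals give the size of difference that these libraries could resolve. The 95% interval of the log2 fold change, not adjusted for the number of genes, had a median half-width of 0.18 over all genes. For 12186 genes (79.3%) this interval lay wholly within a 1.5-fold difference in either direction, and for 14236 (92.7%) within a 2-fold difference. Precision followed the level of the gene. Among the 7493 genes with a mean of 10 to 100 CPM, 95.9% had an interval within 1.5-fold, and among the 2453 genes at 100 CPM or above 98.3% did. Among the 1444 genes under 1 CPM 2.77% did, so most intervals of such genes reached past 1.5-fold. The median log2 fold change (bARK over bARK(D110A)) of all genes was -0.0094, the quartiles were -0.094 and 0.053, and 36 genes (0.234%) had a fold change of more than 2-fold in either direction.

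**Figure D1:**
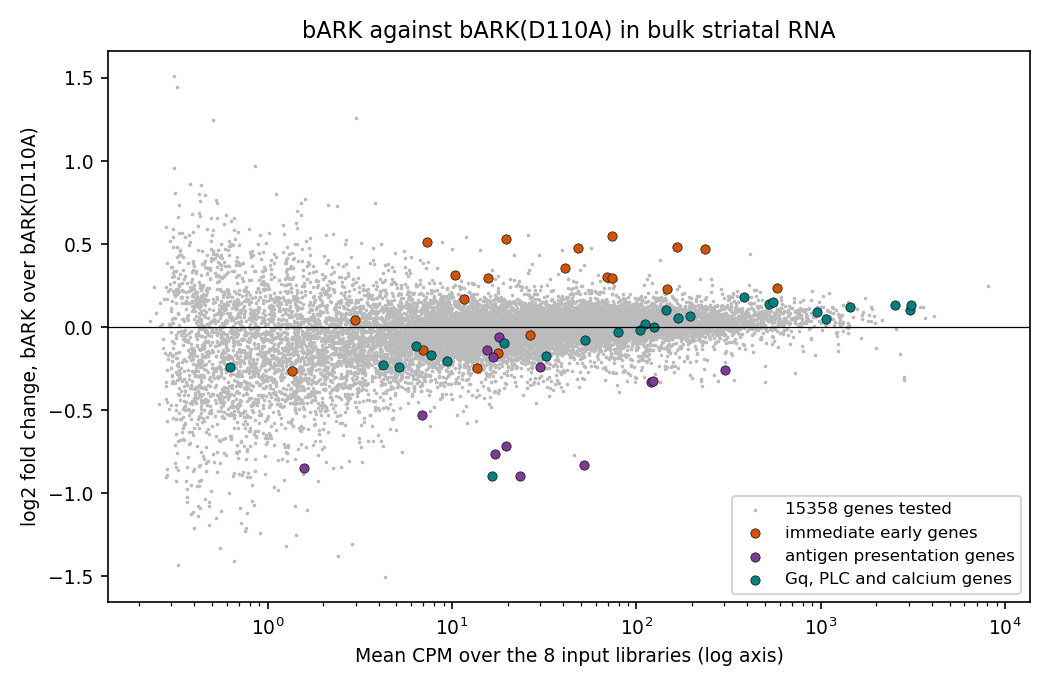
Each point is 1 of the 15358 genes tested, with its mean CPM over the 8 input libraries on a log axis and its log2 fold change, bARK over bARK(D110A). Coloured points mark 3 gene lists. The cloud narrows with the level, most immediate early genes lie above 0, all antigen presentation genes lie below 0, and no gene passed the adjusted threshold.

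Genes of smallest unadjusted p are given as values, since none of them passed the threshold. They were taken only from genes at a mean of 1 CPM or more whose groups did not overlap. On the higher side, the receptor gene for vasoactive intestinal peptide, Vipr1 (chromosome 9, 121642716 to 121672954), had 29.2, 30.1, 27.0 and 30.9 CPM with bARK and 23.1, 22.6, 24.7 and 21.6 CPM with bARK(D110A). Its log2 fold change was 0.35 ± 0.061 (SE). Vgf, a precursor of secreted neuropeptides (chromosome 5, 137025301 to 137033351), had 269, 216, 249.8 and 243 CPM with bARK and 187, 203, 198 and 212 CPM with bARK(D110A), for a log2 fold change of 0.29 ± 0.064. Plxna2, a semaphorin receptor (chromosome 1, 194619791 to 194816869), had 339, 322, 329 and 337 CPM and 307, 293, 287 and 298 CPM, a log2 fold change of 0.16 ± 0.039. Separate groups were a condition of the choice, and in these 3 genes the groups were close together. The remaining higher genes were Proser2 (0.80 ± 0.19), the nonsense-mediated decay factor gene Upf3b (0.31 ± 0.072), the actin crosslinker gene Actn2 (0.26 ± 0.064), Ept1, now Selenoi, an enzyme of ethanolamine phospholipid synthesis (0.17 ± 0.041), the protocadherin gene Pcdhga9 (0.28 ± 0.069), the nonmuscle myosin gene Myh10 (0.16 ± 0.041) and the transcription factor gene Klf10 (0.43 ± 0.11). Pcdhga9 shares exons with the other genes of its cluster, so its counts are uncertain.

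On the lower side, Efna1, the membrane-bound ligand ephrin-A1 (chromosome 3, 89271730 to 89280951), had 1.80, 1.94, 1.95 and 1.44 CPM with bARK and 3.39, 3.39, 2.49 and 3.54 CPM with bARK(D110A), for a log2 fold change of -0.84 ± 0.17. Bbox1, the last enzyme of carnitine synthesis (chromosome 2, 110264056 to 110314813), had 0.962, 1.11, 0.763 and 0.535 CPM and 2.42, 2.21, 1.14 and 2.25 CPM, a log2 fold change of -1.25 ± 0.29. Both genes were low in all libraries, and the value of library 3 of bARK(D110A) was nearest to the bARK libraries in each. The others were the matrix protein gene Vit (-0.69 ± 0.16), the Wnt receptor gene Fzd5 (-0.43 ± 0.10), Rassf3 (-0.25 ± 0.066), the chaperone gene Fkbp10 (-0.42 ± 0.11), Gstz1, an enzyme of tyrosine breakdown (-0.24 ± 0.065), Nxpe4 (-0.28 ± 0.079), the lysophosphatidylserine receptor gene Gpr174 (-0.58 ± 0.16) and Mtbp (-0.51 ± 0.14). All 20 genes had an adjusted p of 0.774.

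The gene from which the peptide derives did not pass the test. Adrbk1, now Grk2 (chromosome 19, 4285999 to 4306222), had 87.7, 90.2, 102 and 103 CPM with bARK and 94.1, 114, 96.0 and 91.9 CPM with bARK(D110A). The groups overlapped, with a log2 fold change of -0.051 ± 0.078 and a 95% interval of -0.22 to 0.12. Whether reads of the introduced peptides were counted on this gene is not known, and both groups carry one, so the value is no check of the labels. Rpl22, the ribosomal protein gene tagged in many ribosome precipitation methods (chromosome 4, 152324436 to 152334082), had 108, 95.8, 81.0 and 97.8 CPM and 101, 93.5, 99.4 and 95.3 CPM, a log2 fold change of -0.025 ± 0.074.

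The core transcripts of the Gq pathway did not pass the test, and their intervals were narrow. Gnaq, the α subunit that the peptide binds, had 169, 170.2, 171 and 174 CPM with bARK and 159, 175, 162 and 163 CPM with bARK(D110A). Its log2 fold change was 0.054 ± 0.040, with a 95% interval of -0.034 to 0.14. Gna11, its close relative, had a log2 fold change of -0.00079 ± 0.039 and an interval of -0.087 to 0.086. Of the phospholipase genes, Plcb1 had 1065, 945, 934 and 981 CPM and 930.4, 863, 943 and 943 CPM, a log2 fold change of 0.093 ± 0.053. For the inositol trisphosphate receptor genes, the log2 fold change was 0.10 ± 0.058 for Itpr1, the main form of neurons, and -0.079 ± 0.072 for Itpr2, the main form of astrocytes.

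Of 26 genes of the Gq, phospholipase C, calcium store and protein kinase C list, 0 were called and the median log2 fold change was 0.0079 (-0.0053 to 0.029; 0.0088), beside -0.0094 over all genes, and -0.015 with library size alone. Its sign turned without library 4 of bARK(D110A). Of them, 4 were higher and 0 lower at an unadjusted p under 0.05, where 2.77% and 3.13% of all genes did. They were the calcium release channel gene Ryr2 (0.18 ± 0.067), the calcium pump gene Atp2a2 (0.12 ± 0.047) and the protein kinase C genes Prkcb (0.13 ± 0.053) and Prkce (0.14 ± 0.057). Ryr2 had 437, 377, 396 and 424 CPM with bARK and 335, 399, 370.0 and 333 CPM with bARK(D110A), and library 2 of bARK(D110A) reached into the range of bARK. The lowest member was Prkcd, another protein kinase C gene, with 11.5, 9.45, 13.8 and 11.0 CPM and 17.4, 46.7, 10.7 and 10.6 CPM. Its log2 fold change of -0.90 ± 0.53 rested on library 2 of bARK(D110A), and without libraries 1 and 2 of bARK(D110A) it was 0.11.

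Receptors and regulators of the pathway were measured as lists too. Of 27 tested Gq-coupled receptor genes, 0 were called, with a median log2 fold change of -0.043 (-0.12 to 0.022; 0.013), whose sign turned without library 1 of bARK or library 2 of bARK(D110A). The metabotropic glutamate receptor gene Grm5 had 1117, 1155, 1109 and 1115 CPM with bARK and 1084, 953, 1167 and 1126 CPM with bARK(D110A), for a log2 fold change of 0.054 ± 0.060. The muscarinic receptor gene Chrm1 had 0.10 ± 0.046, the endothelin receptor gene Ednrb -0.12 ± 0.10 and the adrenergic receptor gene Adra1a -0.036 ± 0.14, all on the log2 fold change scale. The highest was the serotonin receptor gene Htr2a (0.25 ± 0.11) and the lowest the adrenergic receptor gene Adra1d (-0.80 ± 0.71), whose reading in library 2 of bARK(D110A) was 3.81 CPM, against 0.403, 0.874 and 0.716 CPM in the other libraries of its group. Of 16 receptor kinase, arrestin and RGS genes, 0 were called and the median was 0.0059 (-0.021 to 0.042; -0.017), and -0.017 with library size alone, between Rgs16 (-0.50 ± 0.32) and Rgs2 (0.24 ± 0.18), both of which code for proteins that speed up the turn-off of G protein α subunits. The sign of this median turned without library 2 or 3 of bARK or library 1 or 4 of bARK(D110A). Rgs2 had 165, 191, 199 and 182 CPM with bARK and 124, 117, 180.4 and 201 CPM with bARK(D110A), so that libraries 1 and 2 of bARK(D110A) were low and libraries 3 and 4 were at the level of bARK. Of the 69 different genes of these 3 lists, 49 had a 95% interval within 1.5-fold and 61 within 2-fold.

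**Figure D2:**
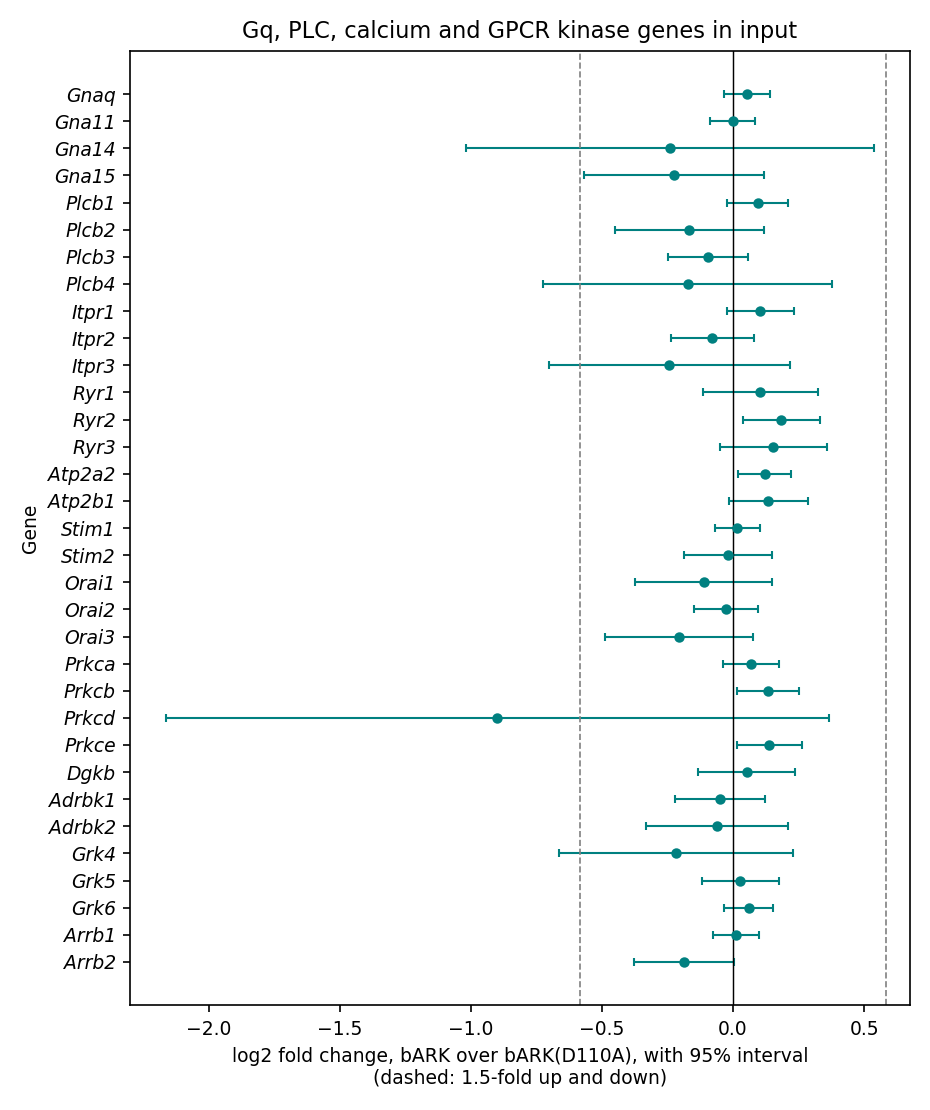
Each point is the log2 fold change, bARK over bARK(D110A), of 1 gene in the 8 input libraries, with its 95% interval, and dashed lines mark 1.5-fold in each direction. The intervals of Gnaq and Gna11 are narrow and lie near 0, while that of Prkcd is the widest.

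Immediate early genes, which are switched on within minutes of neuronal activity and of calcium and growth factor signals, stood higher with bARK as values, but none passed the threshold. Of 20 genes, 0 were called, 15 had a positive log2 fold change and the median was 0.30 (0.25 to 0.36; 0.22). Of them, 8 had an unadjusted p under 0.05 on the higher side (2.77% of all genes did) and 0 on the lower side. In 3 of them, Arc, Junb and Homer1, the groups did not overlap (1.68% of all genes on the higher side). The list was chosen with earlier results of these data known, and its members share neurons and stimuli, so the count is a description.

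Arc, which acts on glutamate receptor traffic at synapses (chromosome 15, 74669081 to 74672570), had 267, 292, 306 and 227 CPM with bARK and 162, 217, 184 and 226 CPM with bARK(D110A). The lowest bARK library, number 4, was level with the highest bARK(D110A) library, also number 4, and the log2 fold change was 0.47 ± 0.12 (95% interval 0.19 to 0.75; adjusted p = 0.774). Egr1, a zinc finger transcription factor (chromosome 18, 34861207 to 34864956), had 183, 159.5, 210.1 and 223 CPM and 108, 123, 146 and 179 CPM, a log2 fold change of 0.48 ± 0.17. Its groups overlapped, since library 4 of bARK(D110A) lay above library 2 of bARK. Egr3 (chromosome 14, 70077317 to 70082613), a relative of Egr1, had 173, 145, 150.0 and 161 CPM and 145, 126, 131 and 133 CPM, a log2 fold change of 0.23 ± 0.062, and library 1 of bARK(D110A) was level with library 2 of bARK. Junb, a subunit of the AP-1 transcription factor (chromosome 8, 84976909 to 84978748), had 75.3, 90.5, 88.7 and 71.4 CPM and 67.1, 69.9, 62.5 and 65.6 CPM, a log2 fold change of 0.30 ± 0.077. Its groups did not overlap. Nr4a1, an orphan nuclear receptor, had 74.3, 90.0, 101 and 84.5 CPM and 33.5, 50.8, 76.1 and 78.9 CPM, a log2 fold change of 0.55 ± 0.27. Library 1 of bARK(D110A) was the lowest and libraries 3 and 4 lay within the range of bARK, with a 95% interval of -0.10 to 1.19. Library 1 was likewise the lowest and library 4 the highest of bARK(D110A) in Egr2 and Egr4, where library 4 of bARK(D110A) had 23.4 and 44.8 CPM and library 1 had 11.2 and 29.5 CPM. Their log2 fold changes were 0.53 ± 0.25 and 0.36 ± 0.15. Fosb (0.31 ± 0.10), the phosphatase gene Dusp6 (0.30 ± 0.11) and the scaffold gene Homer1 (0.24 ± 0.091) were the remaining members with an unadjusted p under 0.05, together with Arc, Egr1, Egr3, Egr4 and Junb. Fos, the best known member, had 13.5, 24.8, 18.0 and 13.1 CPM with bARK and 15.3, 18.6, 9.80 and 12.7 CPM with bARK(D110A), with overlapping groups and a log2 fold change of 0.30 ± 0.26. The lowest member was Ier2 (-0.26 ± 0.29).

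The summed level of the list without Homer1, which makes up a large part of the sum, was 1048, 1094, 1224 and 1078 CPM with bARK and 761, 854, 854 and 985 CPM with bARK(D110A), so that all 4 bARK libraries stood above all 4 bARK(D110A) libraries. Markers of cortical excitatory neurons, which also make these RNAs, had summed levels of 1405 to 1648 CPM with bARK and 1341 to 1616 CPM with bARK(D110A), while the median log2 deviation of these markers from each gene's median over the 8 libraries was 0.14, -0.13, 0.50 and 1.07 with bARK and -0.34, 1.37, -0.29 and -0.40 with bARK(D110A). By this measure libraries 1, 3 and 4 of bARK(D110A) lay below every bARK library and library 2 above every one. The part of these markers in the immediate early values was not tested.

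Promoter sequences are shown for 2 immediate early genes, one with separate and one with overlapping groups, because these genes are known to share an element for the calcium- and cAMP-regulated factor CREB. The 300 bases run from 250 before to 50 after the annotated start (RefSeq, GRCm38.p6), 5′ to 3′ on the strand of the gene, and capitals mark the core letters TGACG of that element on either strand (CGTCA in reverse).
Junb (minus strand, chr8:84978699-84978998): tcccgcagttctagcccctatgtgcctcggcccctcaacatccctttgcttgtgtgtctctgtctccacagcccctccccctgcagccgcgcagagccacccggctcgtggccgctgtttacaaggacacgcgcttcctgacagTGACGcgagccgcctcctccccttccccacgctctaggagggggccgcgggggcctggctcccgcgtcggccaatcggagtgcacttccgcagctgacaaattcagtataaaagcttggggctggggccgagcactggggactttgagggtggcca
Fos (plus strand, chr12:85473640-85473939): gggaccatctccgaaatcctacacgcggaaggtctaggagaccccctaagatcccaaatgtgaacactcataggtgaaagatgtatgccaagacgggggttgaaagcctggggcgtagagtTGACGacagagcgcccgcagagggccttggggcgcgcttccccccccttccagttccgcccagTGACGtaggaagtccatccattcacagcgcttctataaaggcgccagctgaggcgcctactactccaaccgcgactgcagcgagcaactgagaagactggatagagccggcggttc
The core occurs 1 time in the Junb window and 2 times in the Fos window. It was found in 15 of the 21 listed promoters of 16 of these genes, and in 20.8% of all 32851 promoters of this length. Such a match is a description of letters and not of a site in use.

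**Figure D3:**
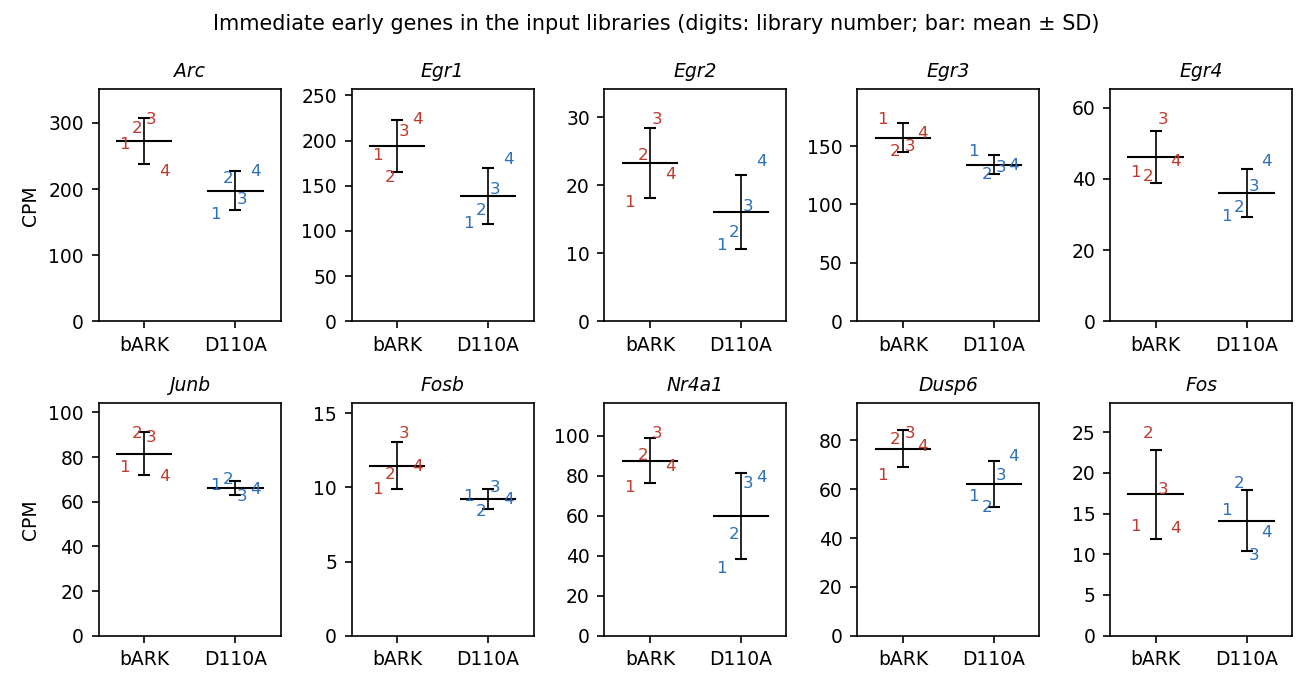
CPM of 10 immediate early genes in each input library, with the library number as the mark, bARK left and bARK(D110A) right, and the mean ± SD of 4 libraries. Arc and Junb have separate groups, and in Egr1, Egr2, Egr4 and Nr4a1 library 4 of bARK(D110A) lies within the range of bARK.

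Of the markers of striatal cell types, 0 were called. In bulk RNA, fewer cells of a type and less RNA per cell cannot be told apart. Of 22 astrocyte markers, 5 had positive and 17 negative log2 fold changes, with a median of -0.079 (-0.10 to -0.015; -0.013), and 21 had a 95% interval within 1.5-fold. Aldh1l1, a folate enzyme, had 72.6, 70.5, 75.2 and 73.5 CPM with bARK and 75.6, 78.3, 68.4 and 73.0 CPM with bARK(D110A), for a log2 fold change of -0.016 ± 0.049. The water channel gene Aqp4 had -0.077 ± 0.094 and Slc1a2 0.070 ± 0.068. The highest astrocyte marker was the protease gene Htra1 (0.11 ± 0.044). The lowest was Gfap, the intermediate filament of astrocytes, with 194, 142, 178 and 194 CPM with bARK and 305, 244, 109 and 206 CPM with bARK(D110A). Gfap was highest in library 1 and lowest in library 3, both of bARK(D110A), and its 95% interval ran from -1.01 to 0.44.

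Markers of spiny projection neurons had log2 fold changes above 0 of small size. All 14 general markers were positive, with a median of 0.074 (0.029 to 0.12; 0.065) and with 0.045 ± 0.060 for the adenylyl cyclase gene Adcy5 as the lowest, and all 14 intervals lay within 1.5-fold. The dopamine receptor genes that mark the direct and the indirect pathway, Drd1 (listed as Drd1a) and Drd2, had 0.094 ± 0.085 and 0.18 ± 0.078. Drd1a was lowest in library 2 of bARK(D110A), at 442 CPM, against 583, 599 and 583 CPM in the other libraries of its group. The adenosine receptor gene Adora2a of the indirect pathway had -0.0094 ± 0.074. Among 9 direct pathway markers, Eya1 (0.24 ± 0.12) was highest and Ebf1 (-0.012 ± 0.088) lowest. Of 8 indirect pathway markers Drd2 was highest and Ptprm (-0.041 ± 0.040) lowest. The median of the direct pathway list was 0.082 (0.027 to 0.12; 0.016), with its lowest value without libraries 1 and 2 of bARK(D110A), and that of the indirect pathway list 0.058 (0.0093 to 0.12; 0.093), with its lowest value without library 4 of bARK(D110A). Pan-neuronal markers had a median of 0.017 (-0.0038 to 0.10; 0.051) and -0.0055 with library size alone, from the RNA-binding protein gene Elavl4 (-0.16 ± 0.24) to the neurofilament gene Nefm (0.14 ± 0.18), and the sign of the median turned without library 1 or 4 of bARK(D110A). Of 15 interneuron markers, the median was -0.021 (-0.13 to 0.073; 0.0089), from the calcium-binding protein gene Calb2 (-0.72 ± 0.33) to the dopamine synthesis gene Th (0.16 ± 0.11), and the sign of the median turned without library 1 of bARK or library 2 of bARK(D110A).

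Oligodendrocyte markers had log2 fold changes below 0 throughout, with a summed level of 7179 to 7944 CPM with bARK and 6765 to 11572 CPM with bARK(D110A). All 16 had negative log2 fold changes, with a median of -0.29 (-0.41 to -0.17; -0.049), from -0.41 ± 0.21 for Opalin to -0.21 ± 0.15 for Fa2h, which makes hydroxylated myelin lipids. Of them, 4 had an unadjusted p under 0.05 on the lower side (3.13% of all genes did) and in 0 were the groups separate. Mbp, a main myelin protein, had 2649, 2616, 2305 and 2440.3 CPM with bARK and 3444, 3974, 2209.6 and 2867 CPM with bARK(D110A). Libraries 1 and 2 of bARK(D110A) were above all others in Mbp and library 3 below all others. Library 4 of bARK(D110A) was also above every bARK library. All 10 markers of oligodendrocyte precursors were negative too, with a median of -0.17 (-0.20 to -0.11; -0.053), from -0.35 ± 0.19 for the transcription factor gene Olig2 to -0.062 ± 0.092 for Neu4.

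Microglia markers had a median of -0.12 (-0.20 to -0.037; 0.038), from Aif1 (-0.25 ± 0.23) to Fcrls (0.039 ± 0.12). The fractalkine receptor gene Cx3cr1 had 92.2, 82.5, 87.7 and 83.9 CPM and 125, 107, 82.0 and 92.0 CPM, a log2 fold change of -0.23 ± 0.12, and was highest in library 1 of bARK(D110A). Endothelial markers had a median of -0.035 (-0.10 to -0.0097; 0.0064), from the tight junction gene Cldn5 (-0.23 ± 0.10) to Vwf, the clotting factor (0.057 ± 0.12). Mural markers had a median of -0.020 (-0.10 to 0.0091; 0.063), from the smooth muscle actin gene Acta2 (-0.59 ± 0.22) to Higd1b (0.40 ± 0.21), and fibroblast markers of -0.060 (-0.14 to 0.013; 0.024), from Ptgds (-0.22 ± 0.17) to the transporter gene Slc6a13 (0.085 ± 0.19). Of 11 tested mural markers, 3 had an unadjusted p under 0.05 on the lower side (3.13% of all genes did) and 0 on the higher side. In 1 of the 11 the groups were separate (1.54% of all genes on the lower side). Genes listed for neighbouring forebrain regions had a median of -0.18 (-0.20 to -0.032; -0.13), from Prox1 (-0.36 ± 0.13) to Calb1 (0.11 ± 0.14). Calb1 had 248, 297, 270 and 232 CPM with bARK and 234, 183, 284 and 273 CPM with bARK(D110A). The summed level of the whole list was 437 to 509 CPM with bARK and 429 to 506 CPM with bARK(D110A). Calb1 is therefore not read as a sign of tissue from outside the striatum. The forebrain median was nearest to 0 without library 2 of bARK(D110A). Without libraries 1 and 2 of bARK(D110A) the medians of the microglia, endothelial, mural and fibroblast lists were on the other side of 0. The mural median also turned without library 3 of bARK or library 1 of bARK(D110A), and the fibroblast median without library 2 of bARK(D110A).

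Ependymal cells, which line the ventricles with motile cilia, had the lowest median of the 34 lists with all libraries. Of 9 tested ependymal and choroid plexus markers, 8 were negative, with a median of -0.51 (-0.64 to -0.22; -0.26). Ccdc153, a gene of motile cilia, had 0.353, 1.58, 1.53 and 1.83 CPM with bARK and 6.41, 1.24, 2.01 and 4.29 CPM with bARK(D110A), for a log2 fold change of -1.38 ± 0.60. Libraries 1, 3 and 4 of bARK(D110A) were above all bARK libraries and library 2 lay among them. Of 13 tested cilia genes 11 were negative, with a median of -0.38 (-0.56 to -0.23; -0.35), from Wdr96, now Cfap43 (-1.32 ± 0.37), to Ift172, a subunit of the intraflagellar transport complex (0.060 ± 0.049). Of the 13, 3 had an unadjusted p under 0.05 on the lower side (3.13% of all genes did) and 0 on the higher side. In 0 of the 13 were the groups separate. The highest ependymal and choroid plexus gene was Clic6 (0.35 ± 0.10).

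**Figure D4:**
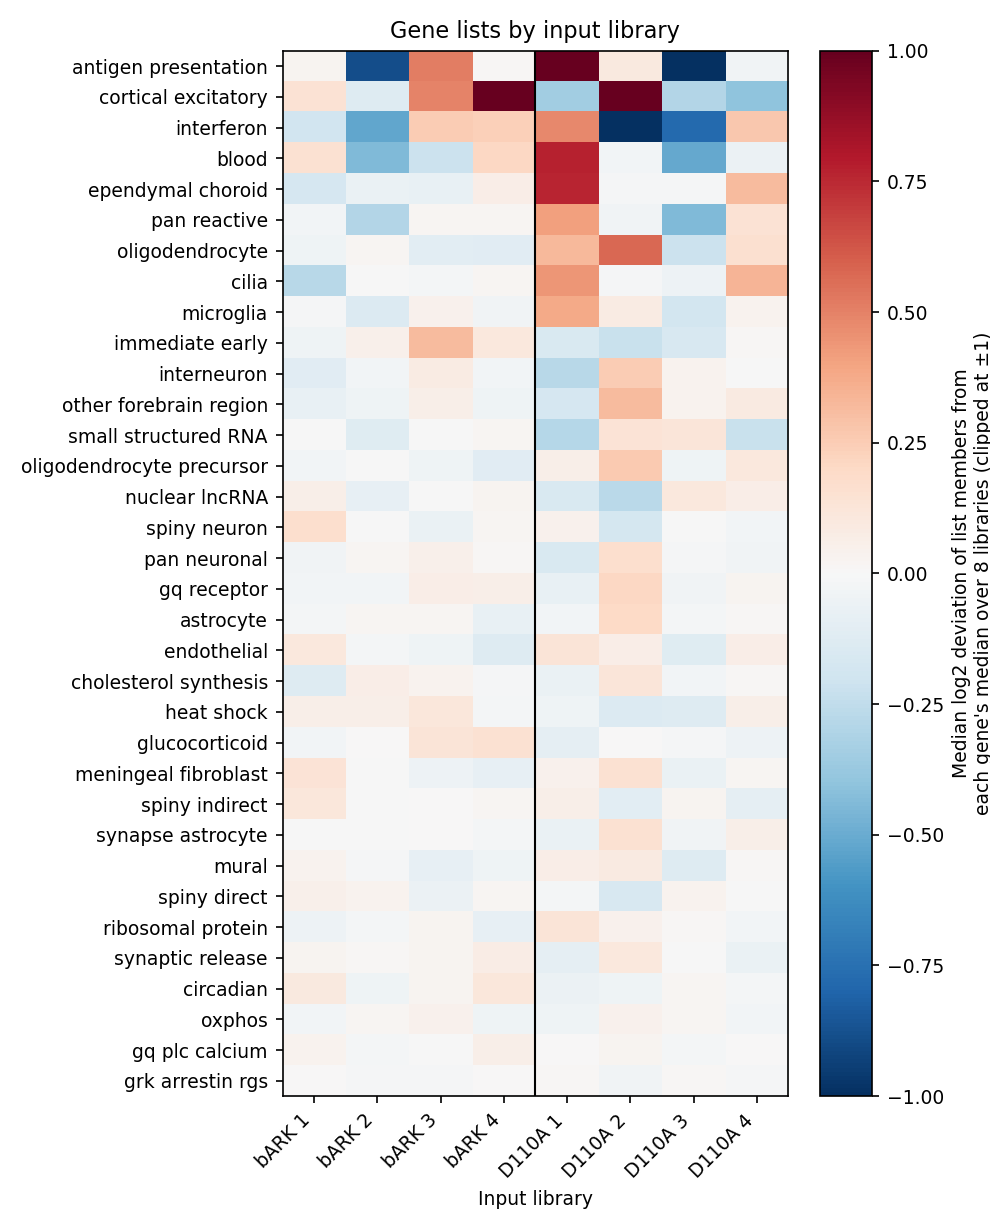
Rows are the 34 gene lists, ordered by their range, and columns the input libraries, bARK left of the line and bARK(D110A) right of it. Colour gives the median log2 deviation of a list's members from each gene's median over the 8 libraries, clipped at 1 in each direction. Antigen presentation, cortical excitatory, interferon and blood cell genes differ most between single libraries, and the lists of Gq genes and of receptor kinases differ least.

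The lists with the widest differences between libraries were those of immune and of cortical genes, and in neither did the groups separate. All 13 antigen presentation genes had negative log2 fold changes with a median of -0.33 (-0.59 to 0.15; 0.50), and 0 had an unadjusted p under 0.05. H2-Aa, a chain of the class II molecule that shows peptides to helper T cells, had 17.8, 6.36, 25.7 and 14.5 CPM with bARK and 77.4, 27.7, 5.43 and 10.9 CPM with bARK(D110A). Cd74, the invariant chain of the same complex, had 40.5, 15.3, 59.5 and 32.7 CPM and 158, 69.8, 13.2 and 24.7 CPM. Library 1 of bARK(D110A) was far above all others in both genes, while library 3 of bARK(D110A) was the lowest of all. Their log2 fold changes were -0.90 ± 0.87 and -0.83 ± 0.83, and without libraries 1 and 2 of bARK(D110A) they were 1.01 and 0.99, on the other side of 0. The median of the list also turned its sign without library 1 of bARK(D110A) alone. The least negative member with all libraries was Nlrc5, the activator of class I genes (-0.060 ± 0.54). Genes of this family resemble each other closely, so reads may have been split between them.

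Igj, now Jchain, the joining chain of secreted antibodies, was likewise highest in library 1 of bARK(D110A), with 54.8, 19.4, 25.7 and 35.6 CPM with bARK and 134, 54.6, 15.6 and 27.7 CPM with bARK(D110A) and a log2 fold change of -0.77 ± 0.72. Of 14 blood cell genes present 3 passed the count filter, with a median of -0.45 (-0.83 to 0.24; 0.66) that turned its sign without library 1 of bARK(D110A), and the highest was Alas2, an enzyme of heme synthesis in red cells (0.75 ± 0.45), with 10.2 CPM in library 2 of bARK. Of 17 interferon-stimulated genes, 13 were positive with a median of 0.12 (-0.094 to 0.38; 0.14), and 0 had an unadjusted p under 0.05. The median turned its sign without library 4 of bARK or library 2 or 3 of bARK(D110A), and was highest without library 1 of bARK(D110A). Mx1, an antiviral GTPase, had 5.68, 9.31, 10.3 and 11.8 CPM with bARK and 7.62, 2.66, 5.46 and 13.5 CPM with bARK(D110A), for a log2 fold change of 0.35 ± 0.47. Gbp2, another interferon-induced GTPase, had 24.5, 17.6, 51.1 and 36.0 CPM and 86.5, 24.0, 14.1 and 28.8 CPM, a log2 fold change of -0.23 ± 0.64. Library 2 of bARK(D110A) was lowest in Mx1 and library 1 highest in Gbp2. Of 12 pan-reactive astrocyte genes the median was -0.11 (-0.15 to 0.054; 0.16), with its sign turned without library 2 of bARK or library 1 of bARK(D110A), from Aspg (-0.63 ± 0.33) to the iron carrier gene Lcn2 (1.25 ± 0.46), which had 0.353, 0.683, 1.00 and 0.817 CPM with bARK and 0.235, 0.0908, 0.344 and 0.545 CPM with bARK(D110A).

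Cortical excitatory markers had a median log2 fold change of 0.27 (-0.045 to 0.77; 0.85). Slc17a7, the vesicular glutamate transporter of cortical neurons, had 39.5, 20.1, 54.8 and 91.1 CPM with bARK and 16, 127, 16.8 and 10.2 CPM with bARK(D110A). Library 2 of bARK(D110A) and library 4 of bARK were the highest and the other 3 libraries of bARK(D110A) the lowest, for a log2 fold change of 0.27 ± 0.94. Tbr1, a transcription factor of cortical projection neurons, was likewise highest in library 2 of bARK(D110A) and then in library 4 of bARK, with 6.00, 2.62, 7.90 and 16 CPM and 2.32, 18.7, 2.94 and 1.57 CPM and a log2 fold change of 0.35 ± 0.93. Slc17a6, the transporter of thalamic and other subcortical glutamate neurons, had 1.35, 2.12, 4.45 and 1.04 CPM with bARK and 0.839, 18.5, 2.07 and 4.33 CPM with bARK(D110A), with library 2 of bARK(D110A) far above the others, and was the lowest of the list (-1.51 ± 1.01). Neurod6 was the highest (0.50 ± 0.81). The median of the list turned its sign without library 4 of bARK. Of 17 genes of the release machinery the median was 0.068 (0.016 to 0.11; 0.086), from Vamp1, a vesicle fusion protein (-0.25 ± 0.34), to Slc17a7.

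**Figure D5:**
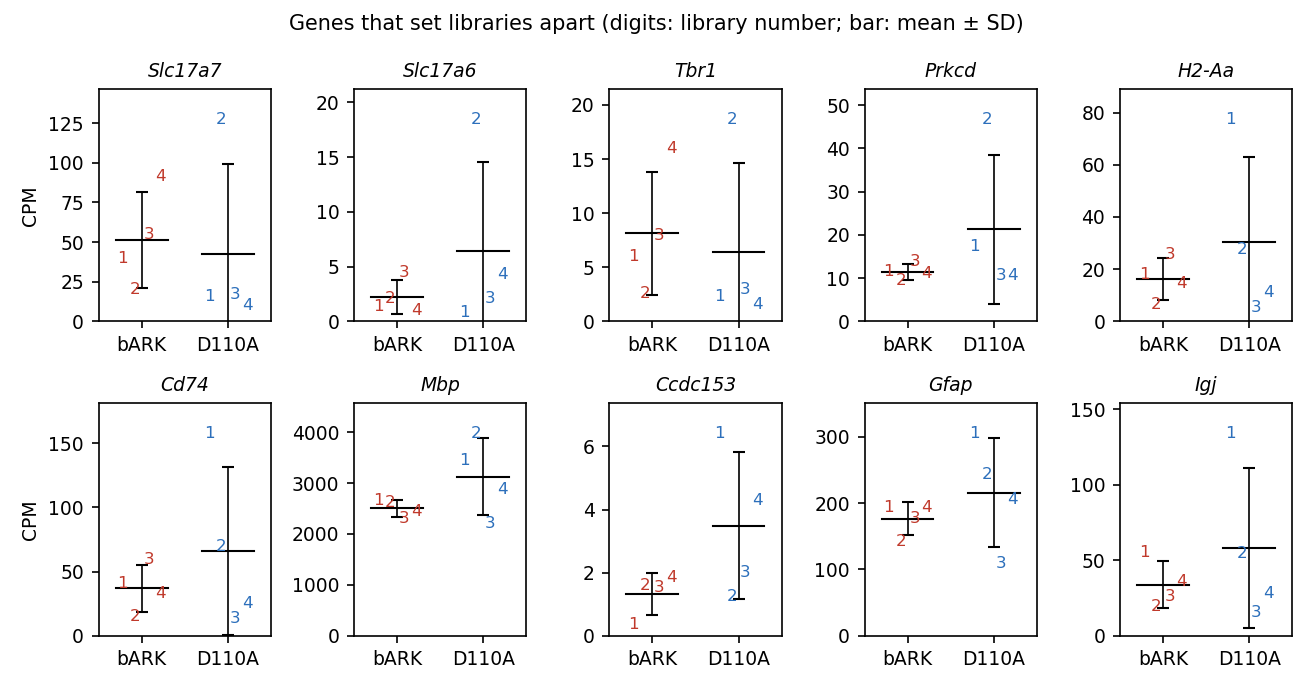
CPM in each input library for 10 genes, chosen after their values were seen, with the library number as the mark, bARK left and bARK(D110A) right. Bars give the mean ± SD of 4 libraries and are cut at 0. Library 2 of bARK(D110A) is highest in Slc17a7, Slc17a6, Tbr1, Prkcd and Mbp, and library 1 in H2-Aa, Cd74, Ccdc153, Gfap and Igj.

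Lists of cell physiology also held 0 called genes. The 18 heat shock and chaperone genes were all positive with a median of 0.10 (0.075 to 0.14; 0.10), from Hspe1 (0.0084 ± 0.082) to Hspa1b (0.73 ± 0.40), which shares nearly all its sequence with Hspa1a. Of the 18, 4 had an unadjusted p under 0.05 on the higher side (2.77% of all genes did) and 0 on the lower side. In 2 of the 18 the groups did not overlap (1.68% of all genes on the higher side). With library size as the only scaling Hspe1 was at -0.015. The 15 glucocorticoid response genes had a median of 0.14 (0.085 to 0.19; 0.16), from the metallothionein gene Mt2 (-0.086 ± 0.072) to the lipid droplet gene Plin4 (1.26 ± 0.53), which had 2.15, 1.40, 5.45 and 7.97 CPM with bARK and 1.28, 1.94, 2.31 and 1.60 CPM with bARK(D110A). Libraries 3 and 4 of bARK stood above all others in Plin4. The 16 clock genes had a median of 0.075 (0.041 to 0.10; 0.054), from Per3 (-0.019 ± 0.057) to Per2 (0.37 ± 0.18). The 18 cholesterol synthesis genes had a median of -0.0081 (-0.048 to 0.057; 0.027) and all 18 intervals within 1.5-fold, with Idi1 lowest (-0.17 ± 0.13), and the sign of the median turned without library 1 or 4 of bARK or library 2 of bARK(D110A). The 27 oxidative phosphorylation genes had a median of -0.0092 (-0.027 to 0.015; -0.0086) and all 27 intervals within 1.5-fold, from Ndufa2 (-0.086 ± 0.068) to Atp5g1 (0.11 ± 0.053), and the sign of the median turned without library 1 or 4 of bARK or library 2 of bARK(D110A). The 28 ribosomal protein genes had a median of -0.068 (-0.092 to -0.037; -0.015), from Rps27 (-0.25 ± 0.19) to Rpl38 (0.24 ± 0.19), with counts made uncertain by their pseudogenes. Of 14 synapse-regulating astrocyte genes the median was -0.072 (-0.12 to -0.011; 0.0033), from the thrombospondin gene Thbs4 (-0.60 ± 0.33) to the phagocytic receptor gene Mertk (0.16 ± 0.056). The nuclear noncoding RNA Malat1 had 9905, 8516, 8435 and 8058 CPM with bARK and 7259, 7518, 6637 and 8031 CPM with bARK(D110A), with separate groups and a log2 fold change of 0.25 ± 0.077. Its list had a median of 0.065 (-0.0062 to 0.14; -0.091), with its sign turned without library 2 of bARK(D110A), and with Neat1 lowest (-0.17 ± 0.21). Of 5 small structured RNAs the median was 0.037 (-0.15 to 0.21; 0.070), with its sign turned without library 1 of bARK or library 4 of bARK(D110A). Snord17 was lowest (-0.29 ± 0.23) and Rmrp highest (0.22 ± 0.20).

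The same contrast was read in the IP libraries with the same numbers, which hold RNA from astrocyte ribosomes. There too 0 of 15002 genes were called (0%), with 788 higher (5.25%) and 498 lower genes (3.32%) at an unadjusted p under 0.05, together 8.57%, and a smallest adjusted p of 0.324. The difference between input and IP in the effect of the construct was tested as an interaction in all 16 libraries, and 0 of 15846 genes were called (0%), with 951 (6%) at an unadjusted p under 0.05, of which 1.92% of all genes on the higher and 4.08% on the lower side, and a smallest adjusted p of 0.826. That fit has no term for the mouse. With input and IP of the same number as a replicate block, 0 genes were called, 1851 had an unadjusted p under 0.05 and the smallest adjusted p was 0.339. Vipr1 had a log2 fold change of 0.13 ± 0.14 in IP, Vgf 0.17 ± 0.060 and Efna1 -0.35 ± 0.23. Fkbp10, a chaperone of the endoplasmic reticulum, had 0.071 ± 0.074 in IP beside -0.42 ± 0.11 in input. Immediate early genes had a median of 0.15 in IP, where 14 of 20 were positive and 6 negative. Arc was at 0.32 ± 0.15, Egr1 at 0.43 ± 0.15 and Nr4a1 at 0.51 ± 0.32 in IP. Junb was at 0.11 ± 0.11, Homer1 at 0.060 ± 0.057 and Fos at -0.15 ± 0.23 in IP. Ier2 was at -0.25 ± 0.26 in IP, beside -0.26 ± 0.29 in input. Astrocyte markers had a median of 0.13 in IP, where 21 of 22 were positive, beside -0.079 in input, with Aldh1l1 at 0.21 ± 0.056. In the same IP comparison, the median lay below 0 for spiny neuron markers (-0.081, 0 of 14 positive), pan-neuronal markers (-0.091, 1 of 16) and oligodendrocyte markers (-0.17, 0 of 16). It lay above 0 for microglia markers (0.093, 12 of 16 positive), endothelial markers (0.099, 9 of 12) and mural markers (0.16, 7 of 10). The part of these cell markers in the IP values was not tested. Adrbk1 was at 0.15 ± 0.10 and Rpl22 at 0.25 ± 0.10 in IP. The Gq, phospholipase C and calcium list had a median of -0.015 in IP (12 of 25 positive). The Gq-coupled receptor list had -0.12 (9 of 27 positive). Itpr2 was at 0.25 ± 0.057 in IP beside -0.079 ± 0.072 in input, and Grm5 at -0.25 ± 0.082 beside 0.054 ± 0.060. Gnaq was at 0.046 ± 0.041, Gna11 at -0.050 ± 0.040, Plcb1 at -0.10 ± 0.067 and Itpr1 at -0.12 ± 0.084 in IP. All of these IP values had an adjusted p above the threshold, and without the block the adjusted p of the interaction was at least 0.826 for each gene.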

How the data were processed

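Polyadenylated RNA of input and IP fractions was sequenced in pairs of reads, from 100 ng of RNA with the Nugen Ovation RNA-Seq System V2, per the labels' protocols. The submitters' processing notes name bcl2fastq 2.17, STAR, HTSeq, limma and mm10. No source states the gene annotation or the strand setting, so reads of overlapping and antisense genes cannot be told apart. The authors deposited whole-number read counts per gene symbol, not normalized, of which 24058 symbols were read. Symbols on 2 lines each were left out.

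Genes passing edgeR's filterByExpr (minimum count 10) in the 8 input libraries were scaled by TMM and tested with edgeR's robust quasi-likelihood F test (edgeR 4.0.16, limma 3.58.1, R 4.3.3), with no block, and p-values were adjusted over all 15358 genes by Benjamini-Hochberg. The biological coefficient of variation was 10.4%. Total counts lay between 27803803 and 37998621 per input library. Intervals are 95% intervals from the fit. IP libraries and the interaction were fitted in the same way, and the script was tested on simulated data.

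Genes were named by rule: Adrbk1, Rpl22, called genes (here 0), in their place the 10 of smallest p in each direction among those at a mean of 1 CPM or more whose groups did not overlap, and the lowest and highest member of each list, of which some are not reported here. The 32 others given as values, among them Arc, Egr1, Junb, Gnaq, Mbp and Cd74, were chosen after their values were seen. The members and lists were chosen with earlier results of these data known. Coordinates and promoters are from RefSeq for GRCm38.p6, the same assembly as mm10, where 22600 symbols matched a current symbol, 1318 an older one and 138 none. Alternatives were other scalings, filters and fits, DESeq2 1.42.0, limma-voom, a replicate block and leaving out libraries.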

Additional observations from a re-analysis of the deposited data

Results flagged for a closer look

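In 21 of 314 groups of 4 input libraries, 1 library lay far from the other 3, with a gap to its nearest neighbour, as a share of the whole range, above Dixon's 95% critical value. Chance alone gives about 1 such group in 20. Of the 21 groups, 5 were of bARK and 16 of bARK(D110A).

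Library 2 of bARK(D110A) was apart in 10 of the 21. It was high in the cortical genes Slc17a7 (0.944 of the range), Tbr1 (0.920) and Neurod6 (0.871) and in the summed level of the cortical excitatory list (0.919). It was also high in the adrenergic receptor gene Adra1d (0.862) and in Ptgds (0.856), an enzyme gene of the fibroblast list. It was low in the dopamine receptor gene Drd1a (0.897), in Prkcb (0.958) and Plcb1 (0.841), which code for enzymes of Gq signalling, and in the summed level of the Gq, phospholipase C and calcium list (0.903).

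Library 1 of bARK(D110A) was low in Myh10 (0.983), Htra1 (0.925) and the astrocyte glutamate transporter gene Slc1a2 (0.922). Library 3 of bARK(D110A) was low in Efna1 (0.853) and Bbox1 (0.838) and high in Pcdhga9 (0.891).

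Of the bARK libraries, library 1 was high in Pcdhga9 (0.937) and in the summed level of the nuclear noncoding RNA list (0.867), library 2 was low in the microglial gene Aif1 (0.861) and high in the red cell gene Alas2 (0.856), and library 3 was high in Rps27 (0.915).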

How the results depend on the processing

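With edgeR, 0 genes were called in either direction under library size alone, upper quartile factors, no filter on low counts, a minimum mean of 1 CPM, non-robust dispersion, a fit of all 16 libraries, or without any 1 library, and limma-voom also called 0. DESeq2 called 2 genes higher, Vipr1 at a log2 fold change of 0.35 and Plxna2 at 0.17 (adjusted p = 0.0476 for both). Genes at an unadjusted p under 0.05 numbered between 484, without library 4 of bARK, and 1583, without library 3 of bARK(D110A), beside 905 with all libraries, and 568 without library 1 of bARK. Without libraries 1 and 2 of bARK(D110A), a choice made after seeing the data, there were 519. In the IP libraries 0 genes were called with library size alone and without any 1 library. Same-numbered libraries of the groups were compared by each gene's deviation of log2 CPM from the mean of its group. The correlations of these deviations were 0.14, -0.010, -0.078 and -0.047, and only number 1 correlated best with its own number. With 4 libraries in each group, these values cannot settle whether the number pairs the groups. The replicate block gave 0 calls and 1131 genes at an unadjusted p under 0.05. Its smallest adjusted p was 0.210, beside 0.774 without the block. In the interaction the replicate block by mouse gave 0 calls and 1851 such genes at an unadjusted p under 0.05.

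Of 2415 recomputed values of the 122 genes named or considered, 2325 kept their direction and side of the threshold and 88 changed sign, all of them in genes below the threshold, and the cause was not tested. Without libraries 1 and 2 of bARK(D110A) the log2 fold changes with the other sign were Adora2a 0.044, Adra1d 0.069, Adrbk1 0.023, Aif1 0.047, Aldh1l1 0.046, Aqp4 0.0012, Calb1 -0.089, Cd74 0.99, Drd1a -0.0070, Ebf1 0.055, Fa2h 0.028, Fcrls -0.092, Gbp2 0.61, Gfap 0.17, Gna11 0.0085, Grm5 -0.030, H2-Aa 1.01, Ier2 0.065, Igj 0.66, Mx1 -0.0075, Neat1 0.12, Neu4 0.036, Nlrc5 0.51, Olig2 0.016, Prkcd 0.11, Ptgds 0.024 and Rgs2 -0.051. With limma-voom they were Gbp2 0.057 and Nlrc5 0.19, with DESeq2 Gna11 0.0041, with all 16 libraries Gna11 0.0057, with library size alone Hspe1 -0.015, with upper quartile factors Hspe1 -0.00090, and with the replicate block Nlrc5 0.073. Leaving out 1 library at a time, 26 genes changed sign at least once in input, with the log2 fold change ranging over Adora2a -0.062 to 0.051, Adra1a -0.12 to 0.055, Adra1d -1.09 to 0.32, Adrbk1 -0.087 to 0.025, Aif1 -0.40 to 0.013, Aldh1l1 -0.051 to 0.014, Calb1 -0.0090 to 0.19, Cd74 -1.18 to 0.061, Ebf1 -0.078 to 0.057, Elavl4 -0.30 to 0.11, Fcrls -0.059 to 0.095, Gbp2 -0.55 to 0.55, Gna11 -0.021 to 0.012, Grm5 -0.0018 to 0.093, H2-Aa -1.25 to 0.15, Hspe1 -0.031 to 0.077, Igj -1.09 to 0.064, Neu4 -0.12 to 0.0050, Nlrc5 -0.32 to 0.54, Per3 -0.051 to 0.021, Rpl22 -0.080 to 0.047, Slc17a7 -0.16 to 1.84, Slc6a13 -0.11 to 0.19, Tbr1 -0.20 to 1.83, Vamp1 -0.42 to 0.13 and Vwf -0.013 to 0.17. In IP 4 did, over Gstz1 -0.015 to 0.043, Mtbp -0.13 to 0.11, Myh10 -0.044 to 0.041 and Plxna2 -0.10 to 0.0088.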
